A study of Mus musculus with 8 samples.

Results

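The GABA-A receptor subunit genes Gabra2, Gabra3, Gabra4, Gabra5, Gabrb1, Gabrb2 and Gabrd (7 genes) were followed in the hippocampus of Ts1Cje mice and their wild-type littermates. They were found through the RefSeq accession that each non-control probe of the array carries, and 8 of the 55681 non-control probes belonged to them. All 7 genes were among the 24025 features tested, of which 15089 had a gene symbol. Ts1Cje is a mouse line used to model Down syndrome, in which the distal part of chromosome 16 is present in an extra copy in every cell, joined to a chromosome 12 that has lost its end. The 4 Ts1Cje and 4 wild-type (disomic) mice were C57BL6/J mice of 3 months, both per the labels, and each array carried total RNA of 1 mouse. None of the 7 genes lies on chromosome 16 or 12 (0 on each), so none is in the triplicated or the lost segment. The tissue is a mixture of cells, in which fewer cells of a type and less RNA per cell cannot be told apart.

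GABA-A receptors are chloride channels opened by GABA, the main inhibitory transmitter of the adult brain. Each is a ring of subunits, usually α and β subunits together with a γ or a δ subunit, and the α subunit and the γ or δ partner largely set where the receptor sits. Receptors with α2 or α3 are found mainly at synapses and carry fast (phasic) inhibition. In the hippocampus, α5 receptors and receptors that combine α4 with δ lie mainly outside synapses and carry tonic inhibition, α5 in pyramidal cells and α4 with δ in dentate granule cells. The β subunits hold part of the GABA binding site and occur in both places. Inhibition in the hippocampus has been studied widely in mouse models of Down syndrome, and comparing the genotypes asks whether transcripts of these subunits differ in level in Ts1Cje.

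RefSeq promoter windows (build GRCm38.p6) were held for 6 of the 7 genes, all but Gabrd, and were read over the 250 bases before each start. Those of 3 genes are shown because the results turn on them: Gabra2 varied most between arrays, Gabra4 had the smallest p-value and Gabrb2 had the brightest probe. Capitals mark matches, on either strand, to 3 short promoter motifs. The first is the GC box, spelled GGGCGG. The second is the CCAAT box, spelled as in its name. The last is the TATA box, spelled TATAAA. The windows are chr5:71095850-71096099 on the minus strand for Gabra2, chr5:71658309-71658558 on the minus strand for Gabra4, and chr11:42420190-42420439 on the plus strand for the first of 3 Gabrb2 starts. Each runs 5′ to 3′ on the strand of its gene.
Gabra2: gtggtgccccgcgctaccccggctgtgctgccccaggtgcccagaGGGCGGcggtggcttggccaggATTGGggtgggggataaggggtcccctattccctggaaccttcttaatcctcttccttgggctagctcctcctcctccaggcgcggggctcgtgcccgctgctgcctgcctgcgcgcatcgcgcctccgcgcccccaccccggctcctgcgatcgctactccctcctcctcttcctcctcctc
Gabra4: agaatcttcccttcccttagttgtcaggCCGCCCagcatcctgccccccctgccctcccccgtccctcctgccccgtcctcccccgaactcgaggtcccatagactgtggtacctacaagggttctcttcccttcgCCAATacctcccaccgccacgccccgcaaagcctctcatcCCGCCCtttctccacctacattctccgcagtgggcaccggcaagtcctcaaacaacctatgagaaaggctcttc
Gabrb2: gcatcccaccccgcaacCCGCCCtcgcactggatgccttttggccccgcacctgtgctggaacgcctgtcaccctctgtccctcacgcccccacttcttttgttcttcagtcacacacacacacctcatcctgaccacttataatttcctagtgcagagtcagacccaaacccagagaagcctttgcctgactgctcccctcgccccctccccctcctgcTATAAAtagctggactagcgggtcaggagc
The Gabra2 window held 18 CpG and a GC content of 70.0%, with 1 GC box and 1 CCAAT box. The Gabra4 window held 12 CpG and a GC content of 61.2%, with 2 GC boxes and 1 CCAAT box. The Gabrb2 window held 8 CpG, 1 GC box and a TATA box that begins at position -30 from the start. No motif overlapped another in these windows. Of the 32851 promoters in the table, read over the same length, 32.74% held the GC box, 33.85% the CCAAT box and 12.37% the TATA box, and the median number of CpG was 6. Gabra4 and Gabrb1, neighbours on chromosome 5, are transcribed in opposite directions. The Gabra4 start (71658308, minus strand) and the first Gabrb1 start (71657921, plus strand) lie 387 bases apart. Transcription from each of these starts runs towards the other. Another Gabrb1 start lies further away, at 71699932. Gabra2 lies on the same chromosome.

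All 7 genes gave signal well above background on each of the 8 arrays. Levels are given as the log2 of the processed signal minus the 75th percentile of the same array, so that 0 is the brightness that 75% of the non-control probes stay under. Gabrb2, a β subunit of both synaptic and extrasynaptic receptors, had the brightest probe on every array, with a mean of 4.07 over the 8 arrays. Gabra3 followed with 3.56 and Gabrb1 with 3.46, then Gabrd with 2.96, Gabra5 with 2.54, Gabra2 with 2.20 and Gabra4 with 1.57. Neighbours in this order did not all differ beyond their spread. Gabra3 was above Gabrb1 on 6 of 8 arrays, by 0.09 ± 0.14 (SD), and Gabra5 was above Gabra2 on 5 of 8 arrays, by 0.35 ± 0.46, whereas the other 4 steps ran the same way on all 8 arrays. The brightness of a probe also depends on its sequence, so this is an order of probes and does not rank the abundance of the transcripts. The synaptic α genes and the extrasynaptic genes were interleaved in it.

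**Figure D1:**
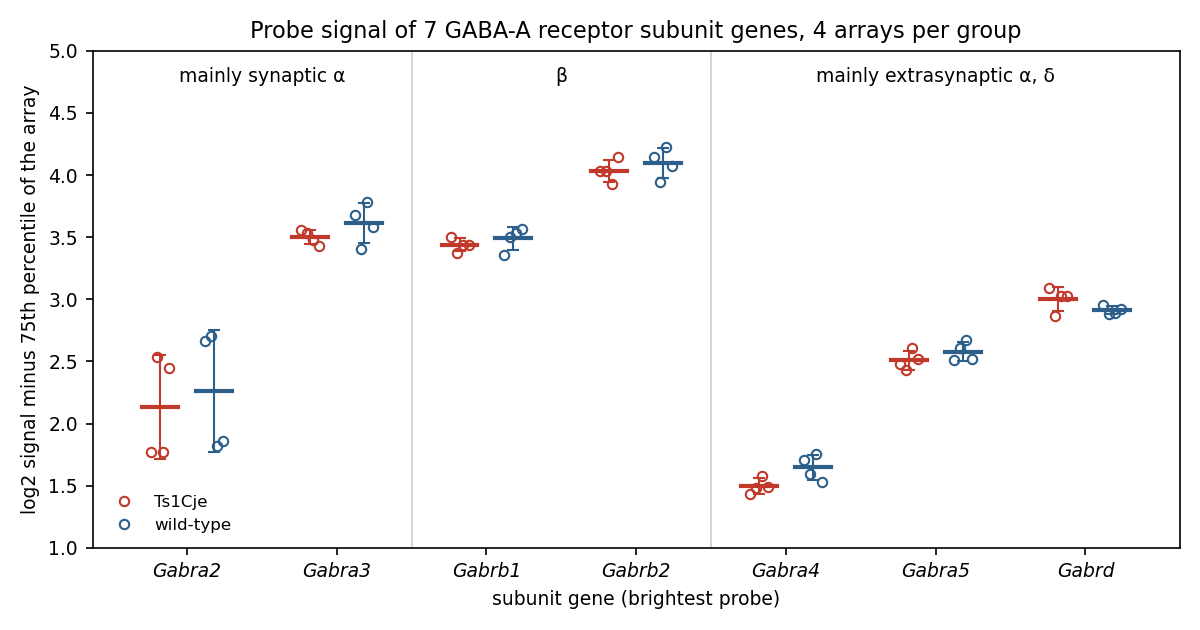
Log2 probe signal minus the 75th percentile of the array (vertical axis) for the 7 subunit genes, with Ts1Cje (red) left of wild-type (blue) for each gene; circles are arrays, thick bars are means and thin bars are 1 SD (n = 4 each). The circles of both genotypes overlap for each gene, and those of Gabra2 lie in a low set at 1.77 to 1.86 and a high set at 2.45 to 2.70 that both hold arrays of each genotype.

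No subunit gene passed the test between genotypes. With limma over all 24025 features and Benjamini-Hochberg adjustment, 0 of the 7 had an adjusted p under 0.05, where 0.196% of all features did (47, of which 42 were higher and 5 lower in Ts1Cje). At an unadjusted p under 0.05 there was 1 of 7, Gabra4, where 8.73% of all features passed. The arrays of the genotypes were separate for 0 of 7 genes, where they were separate for 6.12% of all features. Of the 7 genes, 6 had a log2 fold change below 0 and 1, Gabrd, had one above 0, with a median of -0.07, while the median over all features was -0.0072 and 52.7% of them were below 0. The genes were chosen with earlier results of these data known and are not independent of each other, so this count carries no test. The 95% interval of the fold change held 0 for 6 of 7 genes, and for 6 of 7 it stayed inside a 1.5-fold change in either direction. These values come from a fit that takes the mice as unpaired. With the replicate number as a block, 0 of the 7 passed and the count over all features was 1 instead of 47.

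**Figure D2:**
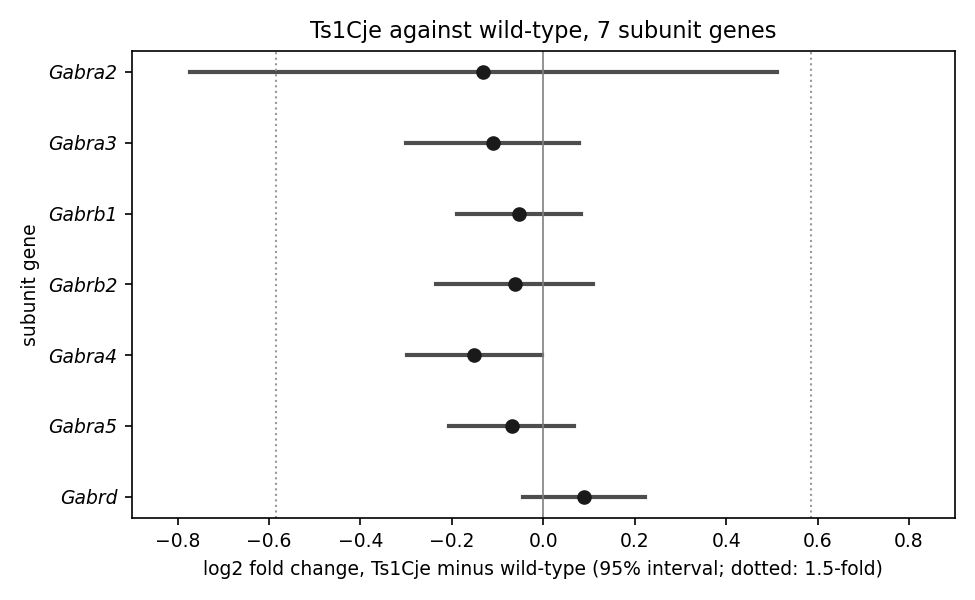
Log2 fold change of Ts1Cje over wild-type (horizontal axis) with its 95% interval from the limma fit for each subunit gene (n = 4 each); dotted lines mark a 1.5-fold change. The points of 6 genes lie left of 0, Gabrd lies right of it, and the interval of Gabra2, from -0.77 to 0.51, is the only one that passes a dotted line.

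Gabra2 encodes α2, a synaptic subunit enriched on the axon initial segment of principal cells. Its level was 1.77, 2.54, 1.77 and 2.45 on the 4 Ts1Cje arrays, against 2.67, 2.70, 1.82 and 1.86 on the 4 wild-type arrays. In each genotype, 2 arrays were low and 2 were high, and no array fell between 1.86 and 2.45. The high wild-type arrays were both in slide row 1 and the low ones in row 2. The high Ts1Cje arrays were both in slide column 4 and the low ones in column 2. The part of slide position in this split was not tested. The mean was 2.13 ± 0.42 in Ts1Cje and 2.26 ± 0.49 in wild-type (SD, n = 4 each), a log2 fold change of -0.13 (SE 0.28, limma adjusted p = 0.90). The pooled SD within genotypes was 0.455, against 0.0722 to 0.121 for the other 6 genes and a median of 0.119 over all features. Among the 6169 features whose mean signal was at least that of Gabra2, 10, Gabra2 included, had a pooled SD at least this large (0.162%). Over all features, dim ones included, 96.5% had a smaller pooled SD. A smaller largest gap between arrays next to each other in level was found for 95.4% of all features. On the linear scale the processed signal of Gabra2 ran from 1920 to 3734, and 0 of its spots carried an outlier flag. Within the slide row that held replicates 1 and 2, Ts1Cje minus wild-type was -0.53, and within the row of replicates 3 and 4 it was 0.27, so the direction differed between the rows. The value rests on 2 arrays per genotype in each row.

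Gabra3 encodes α3, the other mainly synaptic α subunit followed here, with 2 probes on the array. The bright probe read 3.56, 3.53, 3.48 and 3.43 in Ts1Cje, against 3.68, 3.41, 3.78 and 3.58 in wild-type. The wild-type arrays enclosed all 4 Ts1Cje arrays, and the SD was 0.06 in Ts1Cje and 0.16 in wild-type. The means, 3.50 in Ts1Cje and 3.61 in wild-type, gave a log2 fold change of -0.11 (SE 0.08, limma adjusted p = 0.71). The second probe was dim on all 8 arrays, at -3.77 to -3.68 in Ts1Cje and -3.93 to -3.64 in wild-type, and its log2 fold change was 0.06 (SE 0.08), of the opposite sign. Both probes were above background on all 8 arrays, and neither passed the threshold.

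Gabrb1 and Gabrb2 encode β1 and β2. Gabrb1 read 3.50, 3.37, 3.44 and 3.43 in Ts1Cje, against 3.36, 3.50, 3.54 and 3.56 in wild-type. Gabrb2 read 4.03, 4.03, 3.93 and 4.14 in Ts1Cje, against 4.15, 3.94, 4.23 and 4.07 in wild-type. For both genes the ranges overlapped over most of their width. The log2 fold change was -0.05 for Gabrb1 (SE 0.06, limma adjusted p = 0.81) and -0.06 for Gabrb2 (SE 0.07, adjusted p = 0.82). The intervals ran from -0.19 to 0.08 for Gabrb1 and from -0.23 to 0.11 for Gabrb2.

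Of the mainly extrasynaptic subunits, Gabra4 encodes α4, the partner of δ in dentate granule cells. It read 1.43, 1.48, 1.58 and 1.49 in Ts1Cje, against 1.71, 1.59, 1.75 and 1.53 in wild-type. Of the 4 wild-type arrays, 3 were above all Ts1Cje arrays, and wild-type replicate 4 lay inside the Ts1Cje range. The mean was 1.496 ± 0.06 in Ts1Cje and 1.65 ± 0.10 in wild-type (SD, n = 4 each), a log2 fold change of -0.15 (SE 0.06), or a ratio of 0.901 with a 95% interval of 0.813 to 0.998. Its limma p was 0.0458 before adjustment and 0.57 after it, so the gene did not pass. It was lower in Ts1Cje within both slide rows, by log2 values of -0.19 and -0.11.

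Gabrd encodes δ, which replaces γ in extrasynaptic receptors that respond to low ambient GABA and to neurosteroids. It read 3.09, 2.86, 3.03 and 3.03 in Ts1Cje, against 2.96, 2.88, 2.89 and 2.92 in wild-type. The values of 3 Ts1Cje arrays were above all wild-type arrays and Ts1Cje replicate 2 was below them. The mean was 3.00 ± 0.10 in Ts1Cje and 2.91 ± 0.03 in wild-type, a log2 fold change of 0.09 (SE 0.06, limma adjusted p = 0.67). Gabra4 and Gabrd, whose products assemble together, thus had fold changes of opposite sign, neither past the threshold, and across the 8 arrays their levels had a Pearson r of -0.42, given as a description.

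Gabra5 encodes α5, the subunit of tonic receptors in hippocampal pyramidal cells. It read 2.48, 2.43, 2.61 and 2.52 in Ts1Cje, against 2.51, 2.61, 2.67 and 2.52 in wild-type. The ranges overlapped, and the log2 fold change was -0.07 (SE 0.06, limma adjusted p = 0.74). Its interval ran from -0.21 to 0.07.

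Set side by side, the 2 synaptic α genes had a median log2 fold change of -0.12, the 3 extrasynaptic genes -0.07 and the 2 β genes -0.06. The mean level of the extrasynaptic genes minus that of the synaptic α genes was -0.33, -0.78, -0.22 and -0.59 on the Ts1Cje arrays, and -0.78, -0.69, -0.36 and -0.39 on the wild-type arrays. These differences averaged -0.48 ± 0.25 in Ts1Cje and -0.56 ± 0.21 in wild-type (SD, n = 4 each), and the genotypes overlapped. Of the genes in this difference, Gabra2 had the widest range. Ts1Cje minus wild-type had the same sign in both slide rows for 4 of the 7 genes, Gabra4, Gabra5, Gabrb2 and Gabrd.

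**Figure D3:**
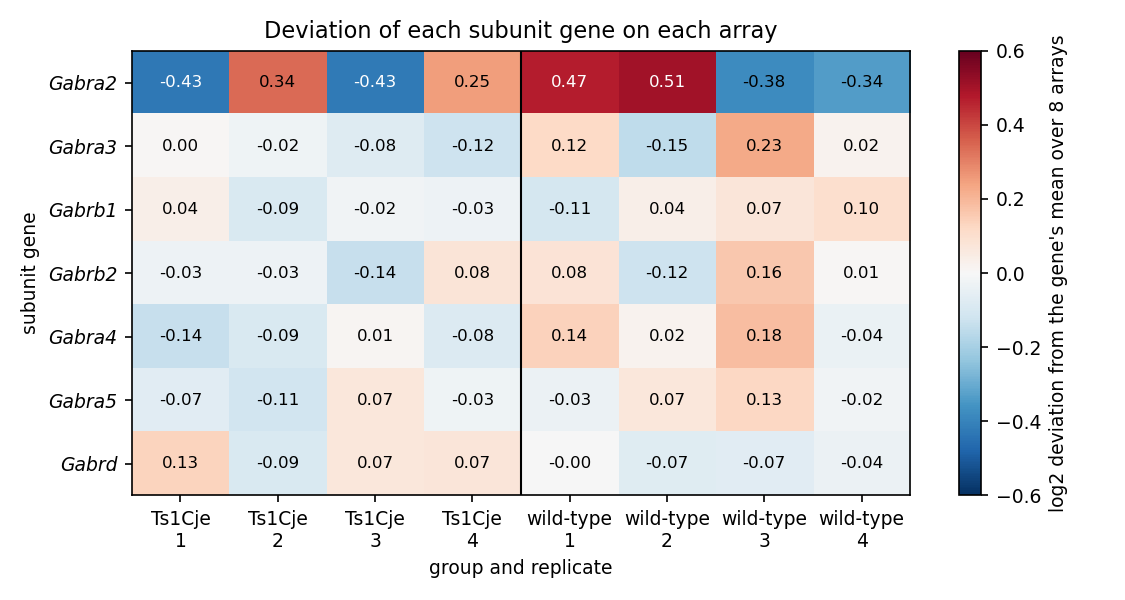
Deviation of each subunit gene (rows) on each array (columns, Ts1Cje left of wild-type) from the mean of the gene over the 8 arrays, in log2 units, with red above and blue below it. Gabra2 departs from its mean on all 8 arrays, down to -0.43 and up to 0.51, while the deviations of the other genes stay between -0.15 and 0.23.

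The 7 genes did not move as a block from array to array. Over the 21 pairs, the Pearson r across the 8 arrays was highest for Gabra3 with Gabrb2 (0.73), Gabra4 with Gabra5 (0.68) and Gabra3 with Gabra4 (0.66), and lowest for Gabra2 with Gabrb1 (-0.62). Gabra4 and Gabrb1, with the first Gabrb1 start close to that of Gabra4, had an r of 0.01. All genes of an array share its RNA and its scaling, so these values are descriptions. Of 14416 candidate genes with a symbol, the levels most like those of Gabra2 were Palld (r = 0.973) and Rab9 (0.967). They were Mrps5 (0.989) and Mrpl46 (0.976) for Gabra3, Glis1 (0.977) and Garre1 (0.974) for Gabra4, and Ndst1 (0.950) and Trmt10a (0.942) for Gabra5. For Gabrb1 they were C87436 (0.964) and Ccdc91 (0.956), for Gabrb2 Ghitm (0.964) and Adam10 (0.946), and for Gabrd Nudcd3 (0.970) and Nqo2 (0.963). With 8 arrays and so many candidates, high values of r are found for each gene: 10 to 75 candidates per gene had an r over 0.9.

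The other genes of the GABA pathway were read in the same limma fit, list by list. Over all features, 0.196% passed the threshold, 8.73% had an unadjusted p under 0.05 and 52.7% had a log2 fold change below 0. Of 12 other GABA-A subunit genes, 7 were bright enough to be tested and 5 were not, and 0 of the 7 passed the threshold or had an unadjusted p under 0.05. Their log2 fold changes lay between -0.09 and 0.05, with a median of 0.01. Of the 8 genes of GABA synthesis, packaging, uptake and breakdown, 0 passed and 0 had an unadjusted p under 0.05, with 6 above 0, 2 below 0 and a median of 0.07. Gad1, which encodes a GABA-synthesising enzyme, had a log2 fold change of 0.10 (SE 0.07, adjusted p = 0.705), and Slc32a1, the vesicular GABA transporter, 0.09 (SE 0.07, adjusted p = 0.71).

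Of the 19 genes of receptor assembly, traffic and anchoring, 0 passed and 0 had an unadjusted p under 0.05. For all features these shares were 0.196% and 8.73%. Of the 19, 5 were above 0 and 14 below 0, with a median of -0.02, where 52.7% of all features were below 0. Trak2, a motor adaptor of the trafficking list, had a log2 fold change of -0.17 (SE 0.10, limma adjusted p = 0.65), and Ubqln1, which steadies newly made receptors, -0.08 (SE 0.05, adjusted p = 0.67). The 5 chloride transport genes set the gradient that the receptor uses, and 0 of them passed or had an unadjusted p under 0.05. Slc12a5, the chloride exporter KCC2, had a log2 fold change of 0.06 (SE 0.04, adjusted p = 0.68), and Wnk1, a kinase that acts on these transporters, -0.11 (SE 0.07, adjusted p = 0.68).

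The 5 genes of neurosteroid synthesis are listed for a part in making steroids that act on GABA-A receptors, most strongly those with δ. None passed the threshold (0 of 5). At an unadjusted p under 0.05 there was 1 of 5, where 8.73% of all features passed. This was Cyp11a1, which encodes the enzyme that makes pregnenolone. Cyp11a1 read -4.35, -3.95, -3.73 and -4.28 in Ts1Cje, against -3.23, -3.38, -3.05 and -3.28 in wild-type. Every Ts1Cje array was below every wild-type array, where the genotypes were separate in either direction for 6.12% of all features. The log2 fold change was -0.84 (SE 0.14) with a limma adjusted p of 0.093, on a dim probe. Star, which carries cholesterol into mitochondria, had a log2 fold change of 0.31 (SE 0.13, adjusted p = 0.57), also on a dim probe.

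**Figure D4:**
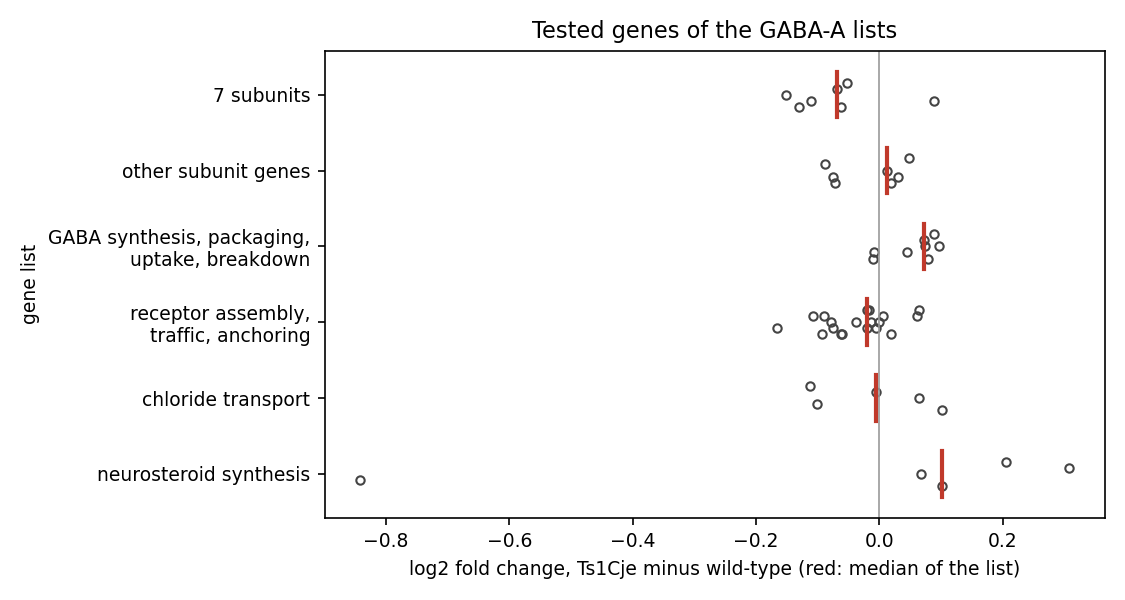
Log2 fold change of Ts1Cje over wild-type (horizontal axis) for each tested gene (circles) of 6 lists (rows), with the median of the list as a red bar. Most circles lie between -0.17 and 0.10, and the one far to the left is Cyp11a1 at -0.84.

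Across the whole array, the 8 arrays correlated pairwise at 0.992 to 0.996 over features, and 59.9% to 63.1% of the non-control probes were well above background. Of the hippocampal markers, 6 of 6 dentate granule cell, 5 of 5 CA1, 5 of 6 CA2 and CA3 and 8 of 8 interneuron markers were bright enough to be tested. So were 5 of 5 neocortex, 5 of 5 striatum, 6 of 6 thalamus and habenula, 5 of 5 choroid plexus and 3 of 4 cerebellar granule cell markers. These counts therefore do not show which regions the tissue held. The mean level of the 6 dentate granule cell markers, the field where α4 and δ are abundant, was -0.25 to -0.09 on the Ts1Cje arrays and -0.10 to -0.06 on the wild-type arrays, with a median log2 fold change of -0.11. The 6 ran from -0.37 to 0.15, 0 passed the limma threshold, and 1, C1ql2 (-0.25), had an unadjusted p under 0.05, with genotypes that did not overlap. For the 5 CA1 markers the mean level was 2.35 to 2.42 in Ts1Cje and 2.38 to 2.49 in wild-type, with a median of -0.06. The 5 went both ways, from -0.19 to 0.30. None passed the threshold (0 of 5), but 3 of 5, Wfs1 (0.30), Fibcd1 (-0.19) and Pou3f1 (-0.15), had an unadjusted p under 0.05 and genotypes that did not overlap, where 8.73% and 6.12% of all features did. These 4 genes were named after their values were seen. The part of these shifts in the values of Gabra4, Gabrd and Gabra5 was not tested. Of the dentate, CA1, CA2 and CA3, and interneuron markers, 1 passed the threshold, where 0.196% of all features did. It was Pcp4 of the CA2 and CA3 list. Pcp4 lies on chromosome 16, the distal part of which is in an extra copy in Ts1Cje (log2 fold change 0.61, SE 0.06, limma adjusted p = 0.0078).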

How the data were processed

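Total RNA (0.1 µg) of each hippocampus was labelled with Cy3 and hybridised to 1 array of 1 slide, per the labels' protocols. Agilent Feature Extraction 10.10.1.1 read the scanner images and the array's probes refer to mouse build mm9, per the file headers. What the authors deposited are intensities on a linear scale, namely a background-corrected processed signal, not scaled between arrays, and median spot and background signals.

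Spots for array control or with an outlier flag were dropped, and 0 were saturated. Processed signals were turned to log2, averaged for each probe and set relative to the array's 75th percentile. A probe was kept if a share of at least 0.5 of its spots stood well above background on each of the 4 arrays of either genotype (32596 probes). Probes were named by RefSeq accession in a table of assembly GRCm38.p6, used for names and gene order (27235 probes, 20660 symbols), and each gene was read by its brightest kept probe. The test was limma's moderated linear model (version 3.58.1, R 4.3.3), adjusted over 24025 features by Benjamini-Hochberg and called at an adjusted p under 0.05. In simulated data with 100 features each, the fit recovered 66% of 1.5-fold and 85% of 2-fold changes over 24025 features, with 6 false calls. The simulation changed 200 features, against 47 called in the data. Its rates are for features as a set and not for a single gene, such as one as variable as Gabra2.

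The subunit genes, lists and tests were chosen with earlier results of these data known. The genes named by rule are the 7 subunits, and of each pathway list the 2 with the smallest p and any past the threshold. To these the rule adds, for each subunit, the 2 most alike by Pearson r over arrays, and markers past the threshold. Markers that did not pass and the features at least as variable as Gabra2 are named outside the rule, after their values were seen. Of the other GABA-A subunit genes only counts and ranges are reported here. Equal replicate numbers are not stated to mark littermates, so the fit has no block. The replicates are read as separate mice, as labelled; a p-value reflects only how far these samples vary, and the number of arrays limits the precision. Slide columns alternate with genotype, so column and genotype cannot be told apart. Alternatives were another background correction, normalization, filter, probe rule, weighting, variance prior and block, and leaving out each array.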

Additional observations from a re-analysis of the deposited data

How the results depend on the processing

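In each of the 20 alternatives, 0 of the 7 subunit genes passed the threshold of the limma test, with 0 to 2 at an unadjusted p under 0.05. Their median log2 fold change stayed between -0.12 and -0.04. Gabrd was above 0 (0.04 to 0.14), and Gabra3, Gabra4, Gabra5, Gabrb1 and Gabrb2 were below 0, in all 20. For Gabra3 this holds for the bright probe and for the mean of its probes (-0.03), while the dim probe alone was at 0.06. Gabra4 ran from -0.20 to -0.11, with an unadjusted p under 0.05 in 10 of the 20 and a lowest adjusted p of 0.44. Gabra2 ran from -0.28 to 0.02 and turned positive when either high wild-type array was left out, at 0.0040 for wild-type replicate 1 and 0.0158 for wild-type replicate 2. The count over the whole array, 47, was 25 with the array median as centre, 23 with no filter on dim probes, 89 with array weights and 71 with a trended and robust variance prior. Leaving out 1 array at a time gave 13 to 44. Omitting Ts1Cje replicate 2, 3 or 4 gave 19, 25 and 13 in that order, and omitting wild-type replicate 2 or 4 gave 28 and 24. With the replicate number as a block the count was 1, and the subunit genes kept 0 calls. Deviations of same-numbered arrays correlated at 0.24, 0.19, 0.11 and 0.05, and 6 of the 8 arrays were most like the array of their own number, the exceptions being Ts1Cje replicate 3 and wild-type replicate 4 (0.14 with each other). All 4 same-numbered values were above 0. As 1 of them was under 0.1 and no label states which mice were paired, the main fit did not use pairs. If the numbers mark the littermate pairs, the count of 1 is the one that follows the design. Same-numbered arrays also lay side by side in a slide row, and shared litter was not separated from shared position. In replicate order, Ts1Cje minus wild-type of same-numbered arrays was -0.28, -0.11, -0.17 and -0.04 for Gabra4 and -0.03, -0.18, -0.06 and -0.01 for Gabra5. Each other subunit gene had both signs. The cause of the shifts in count was not tested. Intervals inside a 1.5-fold change bound what 4 arrays per genotype could show for 6 subunit genes. The interval of Gabra2 stayed under a 1.5-fold rise but reached past a 1.5-fold fall.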

Other observations

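The 9 features beside Gabra2 that were at least as bright and had a pooled SD within genotypes of at least 0.455 were named after their values were seen. They were Etnppl (0.765), Mgp (0.738), Fabp7 (0.700), Mobp (0.577), Ptgds (0.502), Apod (0.484), Arc (0.461), Sgk1 (0.460) and Ndn (0.458). Mobp and Apod are genes of oligodendrocytes and glia, Ptgds and Mgp are abundant in meninges and vessels, Fabp7 and Etnppl are genes of astrocytes and their precursors, and Arc and Sgk1 respond to neuronal activity or stress hormones. Ndn was not placed in any of these groups. Gabra2 was the only GABA-A subunit gene among the 10, and the cause of its spread was not tested.

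Markers of the other cell types and neighbouring regions had median log2 fold changes of Ts1Cje over wild-type between -0.15 (choroid plexus) and 0.11 (endothelium). In between lay astrocytes at -0.07, oligodendrocytes and microglia at -0.05 each, thalamus and habenula at 0.0046, cerebellar granule cells at 0.06, neocortex at 0.08 and striatum at 0.10. None of these genes passed the limma threshold, but members of a list went opposite ways: choroid plexus markers ran from -0.77 to 0.74, oligodendrocyte markers from -0.27 to 0.62, neocortex markers from -0.10 to 0.56 and astrocyte markers from -0.31 to 0.18. At an unadjusted p under 0.05, where 8.73% of all features passed, there were 2 of 5 choroid plexus markers, Clic6 (0.74, on chromosome 16) and Otx2 (-0.77). There was 1 of 5 each of astrocyte (Gja1, -0.31), oligodendrocyte (Mbp, -0.27), microglia (Tmem119, -0.23) and neocortex markers (Rspo1, 0.56). There was also 1 of 4 endothelium markers (Tek, 0.16) and 1 of 6 thalamus and habenula markers (Prkcd, 0.17). Striatum and cerebellar granule cells had 0. Of these genes, named after their values were seen, the genotypes did not overlap for Gja1 and Rspo1, as for 6.12% of all features. For interneurons, the source of the GABA that these receptors bind, 5 of 8 markers were above 0 with a median of 0.08. Of the 8, 0 passed the limma threshold or had an unadjusted p under 0.05, where 0.196% and 8.73% of all features did. The mean level of the interneuron markers was 3.72 to 3.80 on the Ts1Cje arrays and 3.60 to 3.77 on the wild-type arrays, which overlapped.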
